A study of Mus musculus with 12 samples.

Results

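The striatal opioid and tachykinin system was followed here through 10 genes, chosen by symbol for what they encode: the peptide precursors Penk, Pdyn, Tac1 and Pnoc, the opioid family receptors Oprm1, Oprk1, Oprd1 and Oprl1, and the tachykinin receptors Tacr1 and Tacr3. The choice was made with earlier results of these data known. They are 10 of the 54532 genes listed in the count tables, and all 10 were among the 18537 genes tested. Striatum of C57BL/6J mice was profiled by RNA sequencing of polyA-selected RNA after transient middle cerebral artery occlusion (tMCAO), a stroke model in which the artery feeding the striatum is blocked and then reopened. SN-011, the compound under study, is an antagonist of STING, an adaptor of innate immune sensing. There were 12 libraries in 4 groups of 3: tMCAO with SN-011 in libraries whose titles begin with 3d (3d-SN011), tMCAO with SN-011 without that prefix (SN011), tMCAO with PBS (vehicle) and sham operation with PBS (sham). What 3d stands for is not stated, and the prefix appears on no vehicle or sham title, so in the 3d-SN011 group SN-011 and whatever the prefix marks cannot be told apart. The labels give no age and name no animals, so the p-values reflect the spread between these libraries, which may be technical.

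Most striatal neurons are projection neurons of a pair of kinds. Those of the indirect pathway carry the dopamine receptor Drd2 and make proenkephalin (Penk), and those of the direct pathway carry Drd1 and make prodynorphin (Pdyn) and the substance P precursor (Tac1). Each precursor is cut by proteases into short peptides. Enkephalins act mainly at the delta and mu opioid receptors, dynorphins at the kappa receptor, nociceptin (from Pnoc) at the Oprl1 receptor, substance P at Tacr1, the receptor borne by cholinergic and some other striatal interneurons, and neurokinin B at Tacr3. All opioid family receptors couple to inhibitory G proteins, while tachykinin receptors couple to Gq and phospholipase C.

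The active peptides lie inside the precursors, and the coding sequence shows how many copies of each core a precursor holds. In the longest open reading frame of the GENCODE M21 transcripts (GRCm38), Penk encodes 268 residues with 6 Met-enkephalin cores and 1 Leu-enkephalin core. Of the 6, 4 lie between basic pairs on both sides, and the other 2 have no basic pair after them. Pdyn encodes 248 residues with 3 Leu-enkephalin cores, the shared start of the dynorphin peptides and neoendorphin, and no Met-enkephalin. Tac1 encodes 130 residues with 2 of the tachykinin ends that tachykinin receptors recognise, those of substance P and neurokinin A. Pnoc encodes 212 residues with the opening of nociceptin once and no enkephalin. The stretches below are shown because they set the precursors apart by the cores they hold. Each runs 5′ to 3′ on the coding strand, with the 15 bases of the peptide core in capitals between 6 bases on either side.
Penk Met-enkephalin, first copy: aagaagTACGGAGGCTTCATGaaacgg
Penk Leu-enkephalin: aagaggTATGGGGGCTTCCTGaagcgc
Pdyn Leu-enkephalin core, first copy: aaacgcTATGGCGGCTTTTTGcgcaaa
Pdyn Leu-enkephalin core, second copy: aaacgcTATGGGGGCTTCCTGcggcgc
Pdyn Leu-enkephalin core, last copy: aagcgcTATGGTGGTTTCCTGcggcgt
Tac1 tachykinin end, first copy: cagcagTTCTTTGGATTAATGggcaag
Tac1 tachykinin end, second copy: gattccTTTGTTGGACTAATGggcaaa
Pnoc nociceptin start: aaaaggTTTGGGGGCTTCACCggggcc
Every opioid core above follows a pair of basic codons in these flanks, the kind of site that prohormone convertases cut. Both tachykinin ends are followed by a glycine codon, the residue from which the amidated end of these peptides is made.

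Library totals ranged from 15806076 to 18622053 counts, and mitochondrially encoded genes took 3.77% to 6.82% of them. The tissue label was checked against Ppp1r1b, the DARPP-32 gene of striatal projection neurons, which stood at 84.9 to 647 CPM in 3d-SN011 and at 1363 to 1571 CPM in sham. CPM are TMM-scaled counts relative to library size. Libraries stood apart within the SN-011 groups. In 3d-SN011 replicate 1 the sum of 9 pan striatal projection neuron markers was 534 CPM, against 1807 and 2576 CPM in the other 3d-SN011 libraries. In SN011 replicate 3 the same sum was 6043 CPM, against 9584 and 10589 CPM in the other SN011 libraries, 10022 to 11072 CPM in vehicle and 10128 to 10785 CPM in sham. Log2 fold changes without single libraries are therefore given beside the results.

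Of the 10 genes, 9 were lower in 3d-SN011 than in sham (edgeR quasi-likelihood test, called at a p under 0.05 after Benjamini-Hochberg adjustment across the genes tested). By the same test none of the 10 was called different from sham in the SN011 or vehicle group. Those comparisons called 0.113% and 0% of all genes tested, so the absence of calls does not set the 10 genes apart. Of all genes tested, 27.9% were called lower in 3d-SN011 than in sham and 29.8% higher. The exception was Pnoc, the least abundant precursor. The log2 fold changes of the 10 genes had a median of -1.87, against 0.01 over all genes. All 10 genes lay below every sham library in every 3d-SN011 library, as did 31.5% of all genes tested. In RNA from whole tissue, fewer cells of a type and less RNA per cell cannot be told apart.

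**Figure D1:**
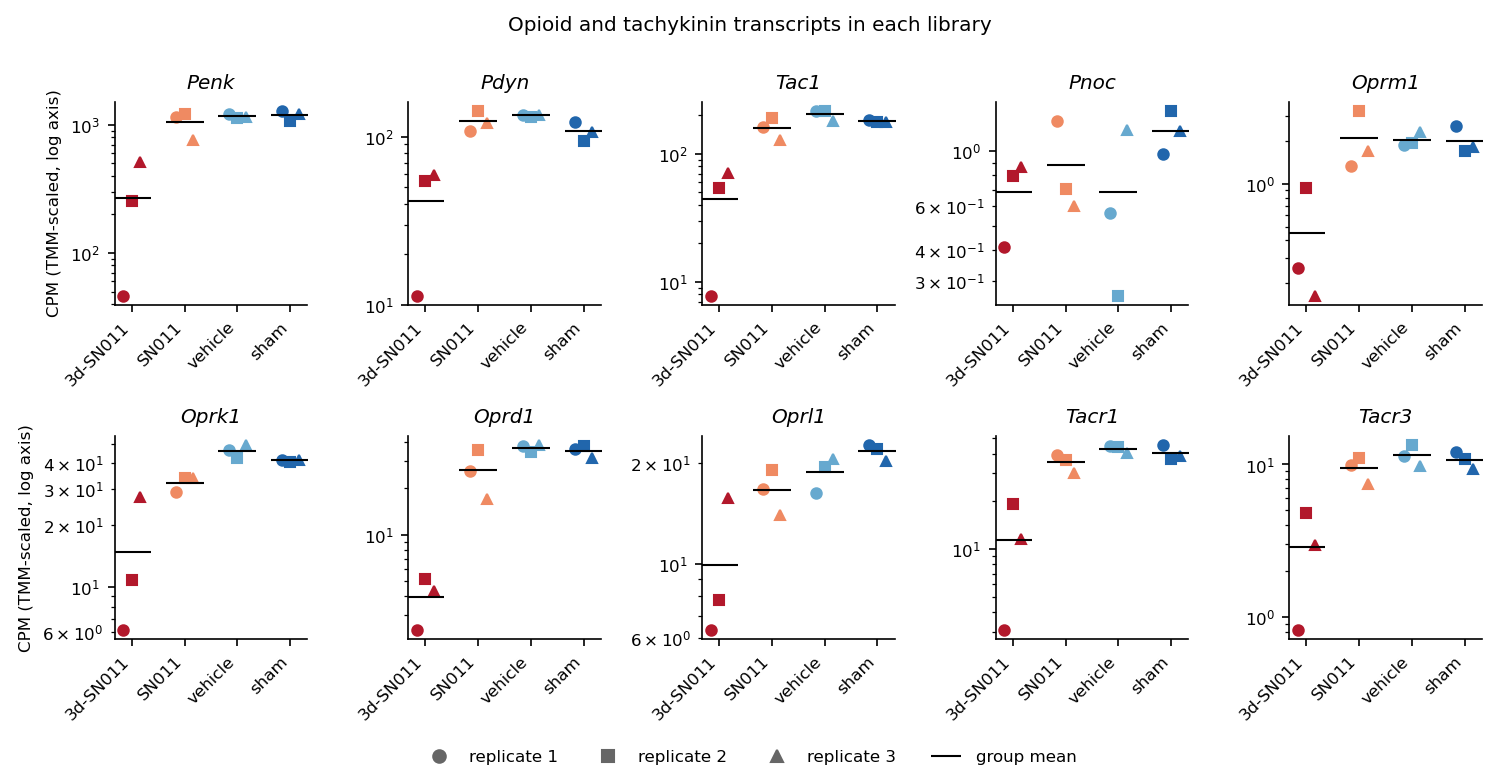
Level of each of the 10 genes in every library (CPM after TMM scaling, log axis), with marker shape giving the replicate and bars the group mean. In 9 panels the 3d-SN011 libraries lie below every vehicle and sham library, and in the Pnoc panel they lie inside the vehicle range.

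Among the precursors, Penk (chr4:4133531-4138819, minus strand) was the most abundant gene of the set. Its level was 46.2, 254 and 512 CPM in 3d-SN011, 1152, 1216 and 763 CPM in SN011, 1213, 1136 and 1155 CPM in vehicle, and 1284, 1076 and 1210 CPM in sham. The 3d-SN011 libraries were all below the other 9 and differed 11.1-fold among themselves, whereas the sham libraries differed 1.19-fold. The log2 fold change of Penk was -2.14 (SE 0.56, adjusted p = 0.00576, edgeR quasi-likelihood test) between 3d-SN011 and sham and -2.11 (SE 0.56, adjusted p = 0.00616) between 3d-SN011 and vehicle. The first was -1.64 without 3d-SN011 replicate 1 and -2.99 without replicate 3, called in both. The noncoding A830012C17Rik, on the opposite strand of Penk, had at most 21 counts in any library, against up to 21161 for Penk.

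Pdyn (chr2:129686565-129699844, minus strand) showed the smallest fall of the called precursors. It stood at 11.3, 54.6 and 59.0 CPM in 3d-SN011, at 109, 142 and 121 CPM in SN011, at 135, 131 and 135 CPM in vehicle, and at 122, 93.8 and 107 CPM in sham. The 3d-SN011 libraries were below all others, and the vehicle libraries were above all sham libraries. Its log2 fold change was -1.37 (SE 0.41, adjusted p = 0.0115, edgeR quasi-likelihood test) between 3d-SN011 and sham and -1.69 (SE 0.41, adjusted p = 0.00353) between 3d-SN011 and vehicle. Leaving out 3d-SN011 replicate 1 gave -0.92 against sham, still called. Vehicle exceeded sham by 0.32 on the log2 scale (SE 0.40), which was not called. The SE comes from the fit of all 12 libraries and so carries the spread within 3d-SN011, where Pdyn differed 5.22-fold between libraries. Vehicle libraries differed 1.03-fold and sham libraries 1.30-fold. Fits that left out the 3d-SN011 libraries did not call Pdyn in vehicle against sham either.

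Tac1 (chr6:7554879-7565834, plus strand) stood at 7.73, 53.5 and 70.6 CPM in 3d-SN011, at 161, 192 and 127 CPM in SN011, at 217, 215 and 180 CPM in vehicle, and at 184, 178 and 178 CPM in sham. Replicate 1 of 3d-SN011 was lowest by a wide margin, as for Penk and Pdyn, and no 3d-SN011 library reached any other library. The log2 fold change of Tac1 was -2.04 (SE 0.51, adjusted p = 0.00430, edgeR quasi-likelihood test) between 3d-SN011 and sham and -2.21 (SE 0.51, adjusted p = 0.00264) between 3d-SN011 and vehicle. It was -1.54 against sham without 3d-SN011 replicate 1 and stayed called.

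Pnoc (chr14:65400673-65425472, minus strand) was near the limit of this depth, with 4 to 24 counts per library. Its level was 0.409, 0.791 and 0.862 CPM in 3d-SN011, 1.33, 0.702 and 0.603 CPM in SN011, 0.562, 0.260 and 1.22 CPM in vehicle, and 0.971, 1.45 and 1.21 CPM in sham. The 3d-SN011 libraries lay below the sham libraries and inside the vehicle range. Its log2 fold change was -0.81 (SE 0.51, adjusted p = 0.193, edgeR quasi-likelihood test) between 3d-SN011 and sham and 0.01 (SE 0.54, adjusted p = 0.989) between 3d-SN011 and vehicle, and no difference was detectable at this depth.

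All 4 opioid family receptors were called lower in 3d-SN011 than in sham. Oprd1 (chr4:132110726-132144486, minus strand), the delta receptor and a main target of enkephalins, showed the largest log2 fold change of the 10 genes. Its level was 2.41, 5.19 and 4.31 CPM in 3d-SN011, 25.7, 35.4 and 17.0 CPM in SN011, 37.5, 34.1 and 38.0 CPM in vehicle, and 35.9, 37.6 and 31.5 CPM in sham. The 3d-SN011 libraries differed 2.16-fold among themselves and all lay below the rest, and SN011 replicate 3 was the lowest outside that group. The log2 fold change of Oprd1 was -3.14 (SE 0.29, adjusted p = 1.08e-05, edgeR quasi-likelihood test) between 3d-SN011 and sham, an 8.80-fold lower level in the fit, and -3.20 (SE 0.29, adjusted p = 1.22e-05) between 3d-SN011 and vehicle. Leaving out single libraries moved the first between -3.38 and -2.88.

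Oprk1 (chr1:5588466-5606131, plus strand), the kappa receptor for dynorphins, spread more within 3d-SN011. It stood at 6.14, 10.8 and 27.5 CPM in 3d-SN011, at 29.0, 33.9 and 33.9 CPM in SN011, at 46.3, 42.6 and 49.2 CPM in vehicle, and at 41.8, 40.7 and 41.7 CPM in sham. Replicate 3 of 3d-SN011 came close to the lowest SN011 library, and the SN011 libraries in turn lay below every vehicle and sham library. Oprk1 had a log2 fold change of -1.48 (SE 0.37, adjusted p = 0.00409, edgeR quasi-likelihood test) between 3d-SN011 and sham. This was -1.11 without 3d-SN011 replicate 1 and -2.29 without replicate 3, and both were called.

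Oprl1 (chr2:181715016-181720985, plus strand), the nociceptin receptor, had the smallest log2 fold change of the called genes. Its level was 6.35, 7.81 and 15.7 CPM in 3d-SN011, 16.8, 19.1 and 14.03 CPM in SN011, 16.3, 19.5 and 20.5 CPM in vehicle, and 22.6, 22.1 and 20.3 CPM in sham. The highest 3d-SN011 library lay above the lowest SN011 library and just under the lowest vehicle library. Oprl1 had a log2 fold change of -1.12 (SE 0.27, adjusted p = 0.00346, edgeR quasi-likelihood test) between 3d-SN011 and sham and -0.91 (SE 0.27, adjusted p = 0.0117) between 3d-SN011 and vehicle. Against sham it was -0.88 without 3d-SN011 replicate 1 and -1.61 without replicate 3.

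Oprm1 (chr10:6758506-7038198, plus strand), the mu receptor that binds enkephalins, endorphin and morphine, was sparsely counted, with 3 to 19 counts per library in 3d-SN011 and 23 to 56 in the other groups. It stood at 0.256, 0.939 and 0.162 CPM in 3d-SN011, at 1.33, 3.28 and 1.70 CPM in SN011, at 1.87, 1.95 and 2.32 CPM in vehicle, and at 2.55, 1.70 and 1.81 CPM in sham. It was the 1 gene of the set for which 3d-SN011 replicate 1 was not the lowest. Its log2 fold change was -2.12 (SE 0.54, adjusted p = 0.00478, edgeR quasi-likelihood test) between 3d-SN011 and sham. Without 3d-SN011 replicate 2, the highest of its group, it was -3.23, and without replicate 3 it was -1.74. Exons of Oprm1 overlap those of Ipcef1 on the opposite strand, which had up to 663 counts per library. Without a stated strand setting, reads of the pair in the shared stretch cannot be told apart. Ipcef1 averaged 10.8 CPM in 3d-SN011 and 25.0 CPM in sham, a log2 fold change of -1.22 (SE 0.54) that was not called.

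Both tachykinin receptors were called lower in 3d-SN011 than in sham. Tacr1 (chr6:82402334-82560104, plus strand), the substance P receptor, stood at 3.07, 19.3 and 11.5 CPM in 3d-SN011, at 38.9, 36.2 and 30.2 CPM in SN011, at 44.9, 43.9 and 40.1 CPM in vehicle, and at 45.3, 36.7 and 38.8 CPM in sham. Here replicate 2 of 3d-SN011 was the highest of its group, yet it stayed below every other library. Tacr1 had a log2 fold change of -1.83 (SE 0.41, adjusted p = 0.00222, edgeR quasi-likelihood test) between 3d-SN011 and sham, which was -1.38 without 3d-SN011 replicate 1 and -2.47 without replicate 2.

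Tacr3 (chr3:134829007-134934579, plus strand), the neurokinin B receptor, stood at 0.819, 4.79 and 2.96 CPM in 3d-SN011, at 9.99, 11.1 and 7.40 CPM in SN011, at 11.4, 13.4 and 9.78 CPM in vehicle, and at 12.01, 10.8 and 9.38 CPM in sham. The order of the 3d-SN011 libraries was that of Tacr1, and no 3d-SN011 library reached another group. The log2 fold change of Tacr3 was -1.90 (SE 0.42, adjusted p = 0.00181, edgeR quasi-likelihood test) between 3d-SN011 and sham, which was -1.46 without 3d-SN011 replicate 1 and -2.51 without replicate 2.

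Against vehicle, the comparison in which both groups had undergone the occlusion, the same 9 genes were called lower in 3d-SN011. So were 28.2% of all genes tested. Between vehicle and sham themselves, 0 of the 18537 genes tested were called. Those 9 also lay below every vehicle library in every 3d-SN011 library, as did 30.0% of all genes. The median log2 fold change of the 10 genes was -1.97, against 0.01 over all genes. The 3d-SN011 libraries are shared with the sham comparison, so the pair of counts are not separate evidence. Leaving out single libraries left 9 called genes each time, with log2 fold changes of -2.96 to -1.61 for Penk, -3.24 to -1.76 for Oprm1 and -2.44 to -1.27 for Oprk1.

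Against SN011, the group whose labels name the same treatment, 9 genes were again called lower in 3d-SN011, beside 22.9% of all genes. In 8 of the 10 genes the 3d-SN011 libraries lay below every SN011 library, as did 25.7% of all genes. Oprd1 again had the largest log2 fold change (-2.71, SE 0.28, adjusted p = 7.36e-05, edgeR quasi-likelihood test), and Oprl1 the smallest of those called (-0.74, SE 0.27, adjusted p = 0.0401). A fit of those 6 libraries alone called 5 of the 10 lower, beside 17.3% of the genes it tested. Under it Penk (adjusted p = 0.0632), Tac1 (adjusted p = 0.0539), Oprk1 (adjusted p = 0.0913) and Oprl1 (adjusted p = 0.113) missed the threshold, with log2 fold changes from -1.99 to -0.78 (edgeR quasi-likelihood test). Leaving out single libraries gave 7 to 9 called genes, with Penk at -2.80 to -1.45, Oprm1 at -3.28 to -1.72 and Oprk1 at -1.93 to -0.75. Oprk1 missed the threshold without 3d-SN011 replicate 2 (log2 fold change -0.94) or SN011 replicate 2 (-1.09). Oprl1 missed it without 3d-SN011 replicate 1 (-0.50) or 2 (-0.59), or without SN011 replicate 1 (-0.74) or 2 (-0.63).

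**Figure D2:**
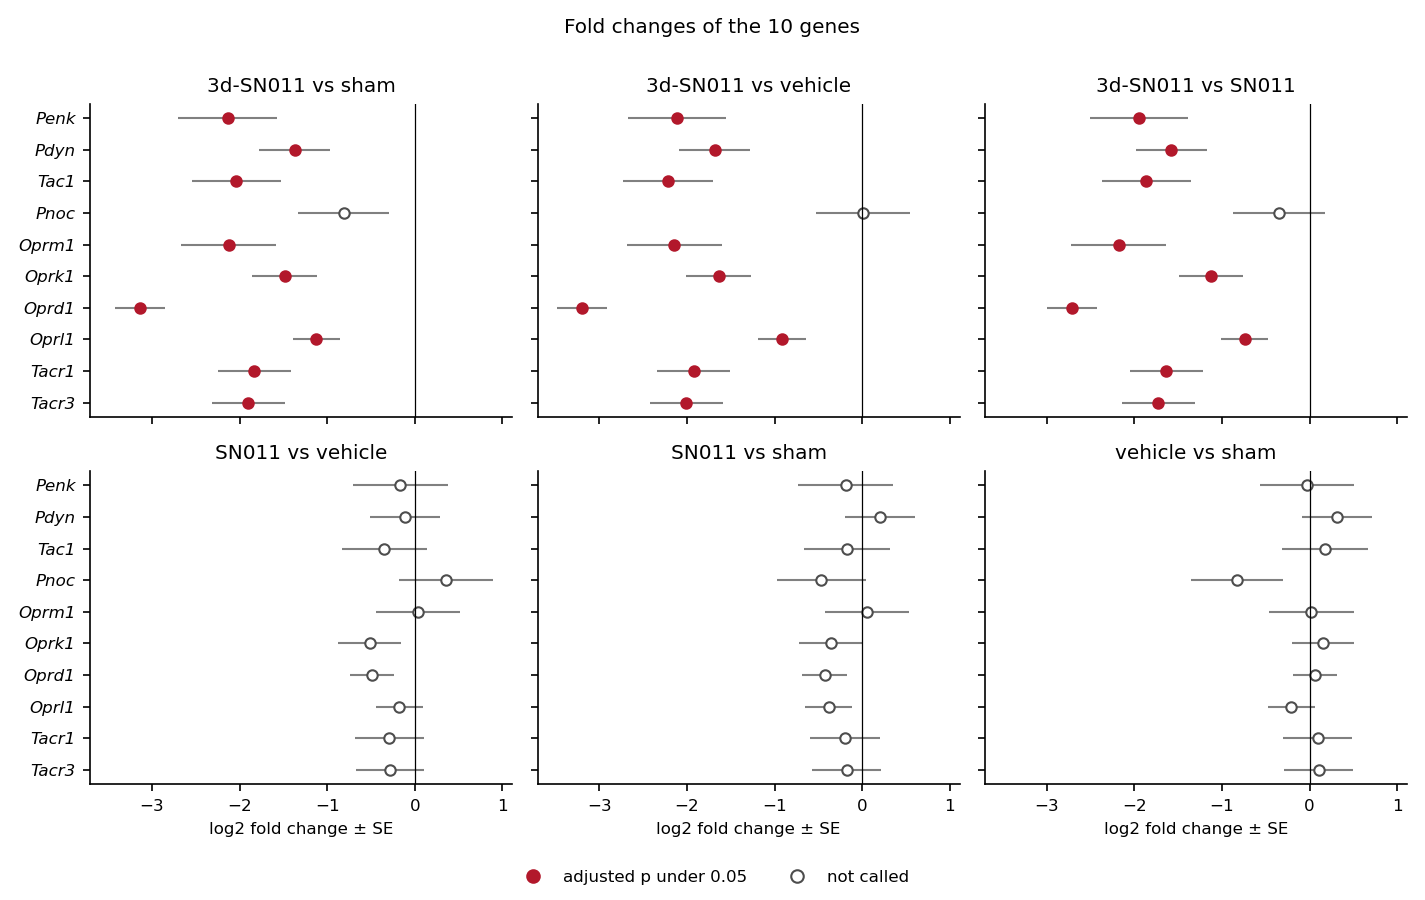
Log2 fold change ± SE of the 10 genes in the 6 comparisons (edgeR quasi-likelihood fit over 12 libraries), filled where the adjusted p was under 0.05. The 9 filled points of each upper panel lie left of 0, the largest at -3.14, -3.20 and -2.71 for Oprd1, and no point of the lower panels is filled.

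SN-011 without the prefix was set against vehicle to ask what the compound changes after occlusion. None of the 10 genes was called by the edgeR quasi-likelihood test, in a comparison where 0.0162% of all genes were called and 2050 genes had an unadjusted p under 0.05. The log2 fold changes of the 10 genes had a median of -0.23, and 8 of the 10 were negative. The SN011 libraries lay below every vehicle library for 2 genes, Oprk1 and Tacr1, and for 7.32% of all genes. Oprk1 had a log2 fold change of -0.51 (SE 0.36, adjusted p = 0.654, edgeR quasi-likelihood test). With limma voom and library quality weights it was -0.60 with an adjusted p of 0.0261, the 1 gene of the set called by that method, which called 2.15% of all genes lower. Oprd1 had a log2 fold change of -0.49 (SE 0.25, adjusted p = 0.528, edgeR quasi-likelihood test), which was -0.26 without SN011 replicate 3.

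Against sham, SN011 likewise gave 0 called genes of the 10 by the edgeR quasi-likelihood test, beside 0.113% of all genes and 2368 genes with an unadjusted p under 0.05. The median log2 fold change of the 10 genes was -0.19. The SN011 libraries lay below every sham library for Oprk1 and Oprl1, and for 12.9% of all genes. Oprk1 had a log2 fold change of -0.36 (SE 0.36, adjusted p = 0.716, edgeR quasi-likelihood test), and -0.45 with an adjusted p of 0.0353 by limma voom with quality weights, which called 3.94% of all genes lower. Within SN011, replicate 3 held the lowest level for 7 of the 10 genes and replicate 2 the highest for 8.

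Vehicle against sham asks what the occlusion changed with no compound given. No gene of the 10 was called by the edgeR quasi-likelihood test, and 0 of the 18537 genes tested (0%) were, with 467 at an unadjusted p under 0.05. The median log2 fold change of the 10 genes was 0.08. Pdyn and Oprk1 were higher in every vehicle library than in every sham library, as were 6.86% of all genes. For Oprk1 the log2 fold change was 0.15 (SE 0.36). This SE also carries the spread within 3d-SN011, where Oprk1 differed 4.47-fold between libraries. It differed 1.15-fold in vehicle and 1.03-fold in sham. Fits that left out the 3d-SN011 libraries called none of the 10 genes in vehicle against sham either. Penk, the most abundant precursor, averaged 1168 ± 40.2 CPM in vehicle and 1190 ± 105 CPM in sham (SD, n = 3 each).

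Levels were compared between genes as CPM per kilobase of exon. In 3d-SN011 Penk averaged 166 CPM per kilobase, Pdyn 14.4, Tac1 12.9, Oprl1 2.65, Tacr1 1.74, Oprk1 1.62, Oprd1 0.987, Tacr3 0.760, Pnoc 0.319 and Oprm1 0.0563. In sham Penk averaged 728 CPM per kilobase, Tac1 53.0, Pdyn 37.3, Oprd1 8.70, Tacr1 6.20, Oprl1 5.77, Oprk1 4.52, Tacr3 2.85, Pnoc 0.562 and Oprm1 0.251. Oprd1, the fourth gene in sham, was the seventh in 3d-SN011. In 3d-SN011 Penk stood above and Oprm1 below the ranges of all others, and the ranges of every pair of neighbours from Pdyn down to Pnoc overlapped. Library by library, Tac1 stood above Oprl1, Oprd1 above Tacr3 and Tacr3 above Pnoc in each 3d-SN011 library. The order of the other neighbours in that stretch varied between libraries. Some genes further apart in that stretch had ranges that did not overlap. The lowest Pdyn library, at 3.92 CPM per kilobase, lay above the highest Tacr1 and Oprk1 libraries, at 2.98 and 3.00, and the lowest Oprl1 library, at 1.69, above the highest Oprd1 library, at 1.29. In sham the ranges of Tacr1 and Oprl1 overlapped, and no other neighbours did.

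The precursors did not keep one proportion to each other. Per kilobase of exon, Penk was 7.22, 8.21 and 15.3 times Pdyn in 3d-SN011, 18.7, 15.1 and 11.1 times in SN011, 15.8, 15.3 and 15.1 times in vehicle, and 18.5, 20.3 and 20.1 times in sham. The ratio was below every sham library in each 3d-SN011 library, and also in each vehicle library. Tac1 was 0.580, 0.833 and 1.02 times Pdyn in 3d-SN011, 1.26, 1.14 and 0.892 times in SN011, 1.36, 1.39 and 1.13 times in vehicle, and 1.28, 1.61 and 1.42 times in sham. Although Tac1 and Pdyn are both made by direct-pathway neurons, their ratio lay lower in all 3d-SN011 libraries than in any vehicle or sham library. SN011 replicate 3 lay inside the 3d-SN011 range, and no test was made of these ratios. Penk was 9.86 to 15.1 times Tac1 in 3d-SN011, 12.5 to 14.9 times in SN011, 11.02 to 13.4 times in vehicle and 12.6 to 14.5 times in sham, so these groups overlapped.

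Other transcripts of the same neurons were also low in 3d-SN011. All 6 direct-pathway markers were called lower than in sham, with a median log2 fold change of -2.44, and so were the 5 indirect-pathway markers measured, with the same median. The markers did not fall evenly, ranging from -3.04 to -0.78 in the direct list and from -2.99 to -1.07 in the indirect list. Drd1 stood at 9.52, 55.8 and 75.9 CPM in 3d-SN011 and at 315, 293 and 309 CPM in sham. Drd2 stood at 16.2, 66.1 and 69.5 CPM in 3d-SN011 and at 391, 352 and 346 CPM in sham. The order of the 3d-SN011 libraries in both was that of Penk and Tac1, with replicate 1 lowest and replicate 3 highest. To set the precursors against their own cells, the log2 CPM of each was taken minus the mean log2 CPM of the markers in the same library.

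**Figure D3:**
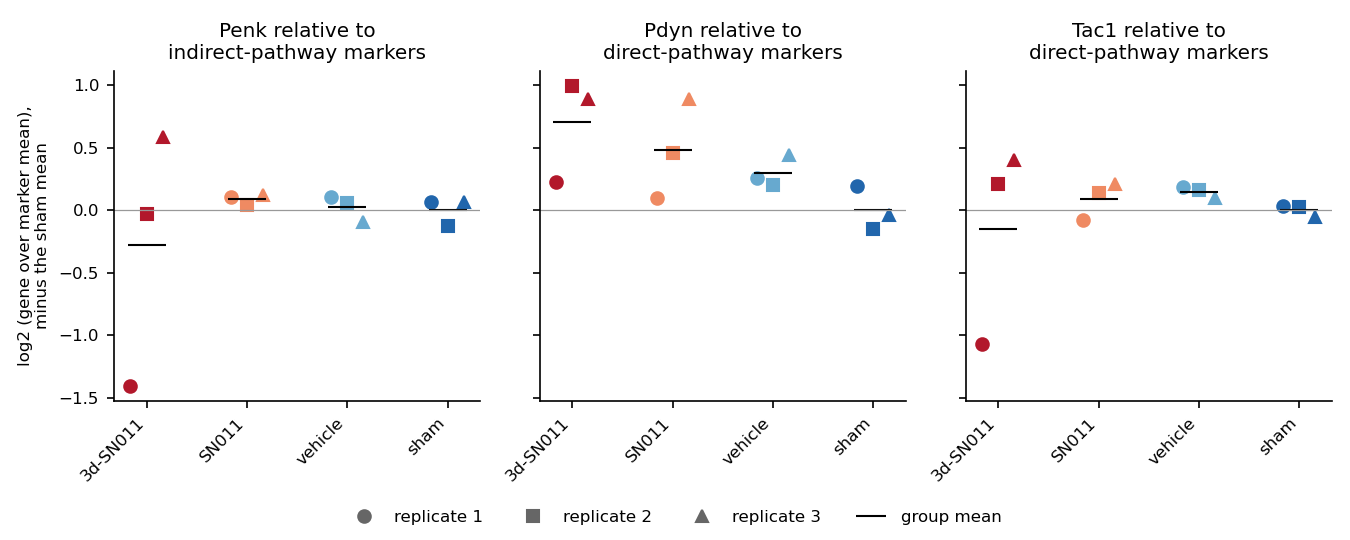
Penk relative to 5 indirect-pathway markers, and Pdyn and Tac1 relative to 6 direct-pathway markers, per library, as log2 values minus the sham mean; bars are group means. For Pdyn the 3d-SN011 libraries at 0.22, 0.99 and 0.89 lie above the 3 sham libraries, and for Penk and Tac1 replicate 1 lies lowest, at -1.41 and -1.07.

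On this scale Pdyn was higher in each 3d-SN011 library than in each sham library, by 0.70 in the mean or 1.63-fold, although its level was lower. Each vehicle library, at 0.26, 0.20 and 0.44 above the sham mean, was also higher than each sham library, the highest of which was at 0.19. With 3 libraries against 3 the exact two-sided permutation test gave p = 0.1, the smallest p it allows, and 0.9 after adjustment over 9 such tests. The value was 0.94 without 3d-SN011 replicate 1. Against vehicle the difference for Pdyn was 0.40 (exact permutation p = 0.3), with overlapping groups. Relative to the 9 pan striatal projection neuron markers, Pdyn stood 0.89, 1.47 and 1.19 above the sham mean in 3d-SN011. On that scale vehicle stood at 0.29, 0.22 and 0.43 and sham at 0.14, -0.16 and 0.03, all below every 3d-SN011 library. SN011 stood at 0.17, 0.42 and 0.94, with replicate 3 inside the 3d-SN011 range. Penk relative to its markers differed by -0.28 from sham (exact permutation p = 0.8) and by -0.31 from vehicle (exact permutation p = 0.8). Tac1 differed by -0.15 from sham and by -0.30 from vehicle (exact permutation p = 1.0 each). For Penk and Tac1 the sign turned without 3d-SN011 replicate 1, when the values against sham were 0.28 and 0.31. It also turned with all libraries kept when the 9 pan striatal projection neuron markers were used, to 0.16 for Penk and 0.33 for Tac1 against sham and to 0.20 and 0.17 against vehicle. In SN011 against vehicle the differences were 0.07 for Penk, 0.18 for Pdyn and -0.06 for Tac1 (exact permutation p from 0.5 to 0.7).

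Promoters of Tac1 and Pdyn, precursor genes of the direct-pathway neurons that were both called lower in 3d-SN011, are shown as 1 with and 1 without the letters sought. Promoter sequences of 300 bases, from 250 before to 50 after the annotated start, were found for 7 of the 10 genes in RefSeq (GRCm38.p6). The letters TGACG, the core of a cyclic AMP response element, were sought on both strands. Tac1 holds them 2 times, in capitals below as CGTCA since they lie on the other strand. Tacr1 and Tacr3 hold them 1 time each. The 2 Pdyn promoters, of which the one at the upstream start is shown, hold none. Of all 32817 promoters of this length, 20.8% hold these letters, and a match describes the sequence, not a site in use. The full element TGACGTCA, which contains those letters (1.79% of all promoters), and the AP-1 letters TGANTCA (7.81%) were in none of the promoters found for these genes. The TATA letters TATAAA (13.6%), sought on both strands, were in the Tacr3 promoter and in the most upstream Oprl1 promoter. In the latter they lie on the other strand, and the other Oprl1 promoters hold none.
Tac1 promoter, chr6:7554811-7555110, plus strand: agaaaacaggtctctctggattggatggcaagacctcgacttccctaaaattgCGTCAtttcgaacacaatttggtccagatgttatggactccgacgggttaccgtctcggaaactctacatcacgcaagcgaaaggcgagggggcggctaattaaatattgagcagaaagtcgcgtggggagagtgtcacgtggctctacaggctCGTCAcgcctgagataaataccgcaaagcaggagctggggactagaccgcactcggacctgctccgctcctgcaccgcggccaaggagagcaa
Pdyn promoter, chr2:129699889-129700188, minus strand: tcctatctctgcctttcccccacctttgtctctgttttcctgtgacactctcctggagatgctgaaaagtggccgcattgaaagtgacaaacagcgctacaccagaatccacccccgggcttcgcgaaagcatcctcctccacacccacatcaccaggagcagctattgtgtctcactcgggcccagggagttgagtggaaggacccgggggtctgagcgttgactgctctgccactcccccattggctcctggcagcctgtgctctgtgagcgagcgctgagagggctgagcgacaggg

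Other genes of the peptide system went both ways in 3d-SN011, and their counts stand beside the 27.9% of all genes called lower than in sham and the 29.8% called higher. Among 7 neuropeptide processing enzymes, 5 were called lower than in sham and 1 higher. Their summed level was not lower, at 2953 to 3983 CPM in 3d-SN011 and 2996 to 3055 CPM in sham. Pcsk1, a convertase that opens prohormones at basic pairs, averaged 3.66 CPM in 3d-SN011 and 17.5 CPM in sham, a log2 fold change of -2.25 (SE 0.29, adjusted p = 4.53e-05, edgeR quasi-likelihood test). Ctsl, a lysosomal protease that is also abundant in macrophages, averaged 542 CPM in 3d-SN011 and 54.4 CPM in sham, a log2 fold change of 3.32 (SE 0.36, adjusted p = 1.63e-05). Among 8 neuropeptide degrading enzymes, 3 were called lower and 1 higher, a count too near those shares to set the list apart. Mme, the membrane peptidase neprilysin that cleaves enkephalins and substance P, stood at 3.43, 12.1 and 19.9 CPM in 3d-SN011 and at 81.5, 89.2 and 84.0 CPM in sham, with a log2 fold change of -2.85 (SE 0.43, adjusted p = 0.000125). Npepps, a cytosolic aminopeptidase, had a log2 fold change of -0.86 (SE 0.13, adjusted p = 0.000101).

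Downstream of the receptors, 12 of 17 opioid receptor signalling partners were called lower in 3d-SN011 than in sham and 4 were called higher. Across all genes tested 27.9% were called lower and 29.8% higher, so the 4 called higher do not set this list apart. Rgs4, which speeds the shut-off of Gi and Gq signals, averaged 75.1 CPM in 3d-SN011 and 865 CPM in sham, a log2 fold change of -3.53 (SE 0.36, adjusted p = 1.25e-05, edgeR quasi-likelihood test). Arrb2, the beta-arrestin known for desensitising the mu receptor, averaged 109 CPM in 3d-SN011 and 28.2 CPM in sham, a log2 fold change of 1.95 (SE 0.17, adjusted p = 1.07e-05). Of 6 tachykinin receptor signalling partners 4 were called lower and 0 higher. These included Itpr1, the calcium channel opened by the phospholipase C product, with a log2 fold change of -2.89 (SE 0.26, adjusted p = 1.08e-05), and the kinase gene Prkcb at -2.56 (SE 0.26, adjusted p = 1.22e-05). Of 9 regulators of precursor transcription 6 were called lower and 0 higher, among them the activity-induced factors Egr1 (-2.54, SE 0.26, adjusted p = 1.32e-05) and Egr3 (-3.01, SE 0.32, adjusted p = 1.40e-05).

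Of 4 other ligands and receptors of the same families, 2 passed the filter on low counts. Tac2, the neurokinin B precursor, was called higher in 3d-SN011 than in sham (log2 fold change 2.47, SE 0.88, adjusted p = 0.0284, edgeR quasi-likelihood test). Its level was 0.563, 0.791 and 7.16 CPM in 3d-SN011, against 0.485, 0.182 and 0.847 CPM in sham. Replicate 3 alone was high, and the other 3d-SN011 libraries lay within the sham range. No member of these lists was called in SN011 against vehicle, SN011 against sham or vehicle against sham.

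Markers of other cells moved with the same libraries, and their part in these results was not tested. All 8 microglia and macrophage markers were called higher in 3d-SN011 than in sham, with a summed level of 2429 to 3579 CPM in 3d-SN011, 373 to 1170 CPM in SN011, 266 to 299 CPM in vehicle and 277 to 311 CPM in sham. Of the 6 astrocyte markers 5 were called higher, and their sum was 10056 to 14884 CPM in 3d-SN011, 4701 to 8826 CPM in SN011, 4049 to 4397 CPM in vehicle and 4357 to 4549 CPM in sham. The highest SN011 values in both were those of replicate 3, the library with the lowest Penk of its group. Oligodendrocyte markers summed to 14952 to 23737 CPM in 3d-SN011 and 9247 to 11849 CPM in sham. Of these 6 markers 4 were called higher, beside 29.8% of all genes tested. All 8 pan neuronal markers were called lower, with a sum of 1009 to 1753 CPM in 3d-SN011 and 4389 to 4937 CPM in sham. Of the 12 striatal interneuron markers 8 were called lower and 0 higher. Chat, the acetylcholine-synthesising enzyme of the interneurons that bear Tacr1, stood at 1.38, 10.8 and 8.67 CPM in 3d-SN011 and at 26.8, 22.1 and 24.6 CPM in sham. The interneuron peptide Sst, at 45.5, 104 and 101 CPM in 3d-SN011 and 95.7, 105 and 103 CPM in sham, was not called (log2 fold change -0.28, SE 0.25).

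Markers of neighbouring tissue also varied between libraries. Cortical projection neuron markers summed to 54.8 to 249 CPM in 3d-SN011, 71.9 to 159 CPM in SN011, 26.7 to 340 CPM in vehicle and 82.1 to 405 CPM in sham. These ranges overlapped. Choroid plexus markers summed to 32.2 to 781 CPM in 3d-SN011, 1043 to 3013 CPM in SN011, 1334 to 2708 CPM in vehicle and 108 to 2518 CPM in sham. Every 3d-SN011 library lay below every SN011 and vehicle library and inside or below the sham range, and 5 of the 6 markers were called lower in 3d-SN011 than in vehicle and than in SN011, against 2 of 6 relative to sham. Thalamus and hypothalamus markers summed to 139, 131 and 136 CPM in 3d-SN011, 45.8, 33.8 and 77.5 CPM in SN011, 32.7, 30.6 and 40.03 CPM in vehicle, and 34.0, 29.8 and 32.7 CPM in sham. The 3d-SN011 libraries lay above all others, with SN011 replicate 3 the next. Of the 5 thalamus and hypothalamus markers tested, 2 were called higher in 3d-SN011 than in sham and 0 lower. Among all genes tested 29.8% were called higher, too near this count to set the list apart. The 2 called were Prkcd and the transcription factor gene Tcf7l2. Prkcd, a kinase gene that myeloid cells also express, stood at 96.6 CPM in 3d-SN011 and 14.1 CPM in sham. Tcf7l2 stood at 29.5 CPM in 3d-SN011 and 9.61 CPM in sham. Slc17a6, the glutamate transporter of thalamic projection neurons, averaged 0.758 CPM in 3d-SN011 and 1.59 CPM in sham and was not called. The part of these tissues in the levels of the 10 genes was not tested.

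**Figure D4:**
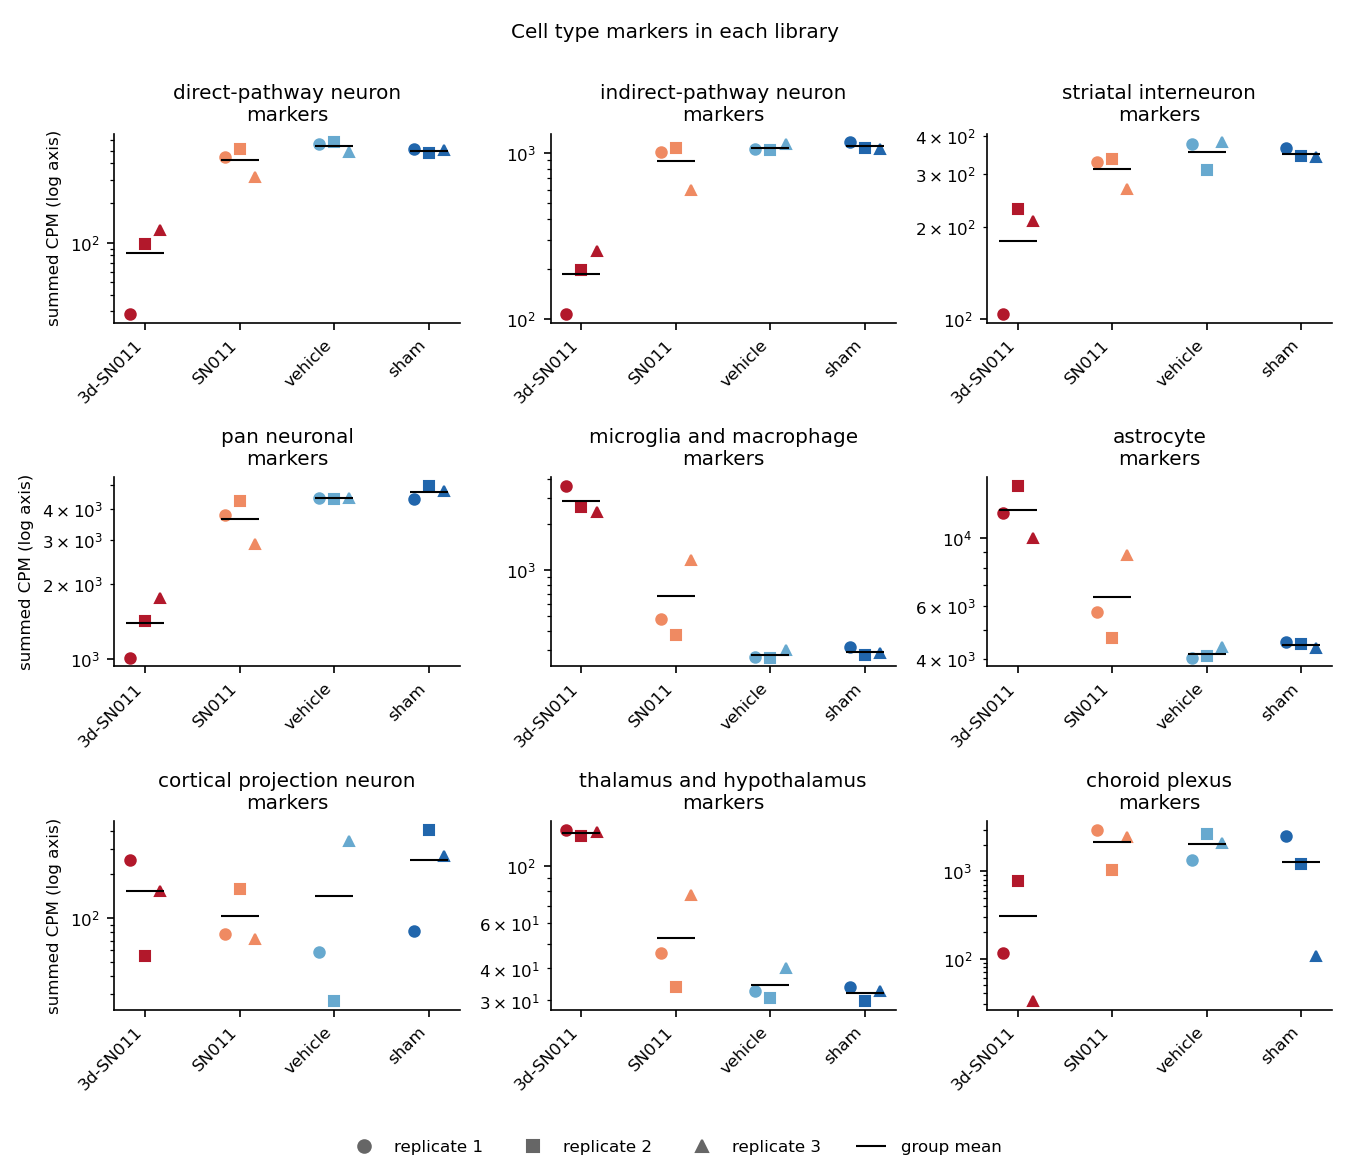
Summed CPM (log axis) of 9 marker lists in each library, with marker shape giving the replicate and bars the group mean. Neuronal sums are lowest and microglial, astrocyte and thalamus and hypothalamus sums highest in the 3 3d-SN011 libraries, with SN011 replicate 3 between them and the rest, while cortical sums overlap between groups and choroid plexus sums in 3d-SN011 lie below every SN011 and vehicle library.

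The genes most like the members were sought by Pearson's r of log2 CPM over the 12 libraries, among genes averaging at least 5 CPM. These values are descriptions, and all of them share the difference between 3d-SN011 and the other libraries. Penk was most like Dclk3 (r = 0.996), Tac1 most like Gpr83 (r = 0.997), Pdyn most like Chat (r = 0.989) and Oprd1 most like Pgr (r = 0.997). Tacr3 was the second most like Tacr1 after Abat (r = 0.994 each), and Tacr1 was the gene most like Tacr3. Oprk1 was most like Rasgef1c (r = 0.986), Oprl1 most like Krba1 (r = 0.982) and Oprm1 most like Ust (r = 0.966). Over the 9 libraries without 3d-SN011 the leading genes were others. Tac1 was then most like Ftx (r = 0.992) and Drd1 (r = 0.988), Penk most like Ppp2r5d (r = 0.993), Pdyn most like Dok3 (r = 0.935) and Oprk1 most like Gfm1 (r = 0.931).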

How the data were processed

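Striatal RNA was sequenced as paired reads from polyA-selected libraries, per the labels' protocols. The authors deposited 1 table of read counts by Ensembl gene for each library, with no normalization in the values. The submitters' processing notes name HISAT2, featureCounts and the build mm10; tool versions, annotation release and strand handling were not given in the sources used here. Of 54532 genes listed, 54409 could be matched to a symbol, and 0 entries name no gene. Coordinates and exon lengths are those of GENCODE M21 (GRCm38), counted from 1.

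The count model was edgeR 4.0.16 in R 4.3.3, with filterByExpr (minimum count 10), TMM scaling and 1 quasi-likelihood fit of all 12 libraries in which group was the only term. Calls needed a Benjamini-Hochberg adjusted p below 0.05 across the 18537 genes that passed. Each standard error is the log2 fold change divided by the root of its F value. Log2 CPM used a prior count of 2. The fit was also run on counts simulated with known folds and the same spread in every group. That setting does not test the wider spread within 3d-SN011. No library was treated as a repeat of another, since within groups the chi-square over degrees of freedom was 4.79 to 78.2 (genes with at least 20 counts).

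The 10 genes, the marker and pathway lists and the tests were chosen with earlier results of these data known. From each list described, the text names up to 2 called genes with the smallest adjusted p in 3d-SN011 against sham, plus defining cell type markers; for likeness, the 3 leading genes of each member were ranked. The likeness of Pnoc is not reported here. Tac2 falls under that rule, and Ipcef1 is named only for its overlap with Oprm1. Lists are described by counts, without a test of their own. Peptide cores were found by translating the longest reading frame of each gene's protein-coding transcripts.

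Alternatives were RLE scaling, no filter, the replicate number as a block, fits of 6 or 9 libraries, limma 3.58.1 voom with quality weights, DESeq2 1.42.0, pan striatal markers, a prior count of 0.5 and leaving out each library. Plots used matplotlib 3.10.9 (Python 3.11.15).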

Additional observations from a re-analysis of the deposited data

How the results depend on the processing

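The counts of 9 called genes in 3d-SN011 against sham and against vehicle held under every alternative run. In 3d-SN011 against SN011 the fit of 6 libraries called 5. The numbers of the labels did not pair libraries (same-number correlations -0.293 to 0.143), and with the replicate block the calls among the 10 genes stayed at 9, 9, 9, 0, 0 and 0; over all genes, SN011 against vehicle had 19 calls instead of 3. That count was 601 with no filter, 5 with 6 libraries, 17 with 9, 1179 with voom and 445 with DESeq2, and 0 to 513 leaving out libraries. SN011 against sham had 775, 7, 39, 1875 and 625 (main 21), and 0 to 694 leaving out libraries. Vehicle against sham had 5, 16, 1, 32 and 3 (main 0). Voom called 1 of the 10 genes, Oprk1, in each of the SN011 comparisons. Relative to pan striatal markers, Penk changed sign in 3d-SN011 against sham (0.16) and vehicle (0.20), as did Tac1 (0.33 and 0.17). Leaving out libraries, the ranges were -0.72 to 0.28 and -0.74 to 0.25 for Penk, -0.43 to 0.31 and -0.58 to 0.16 for Tac1, and, in SN011 against vehicle, -0.020 to 0.38 for Pdyn and -0.12 to 0.025 for Tac1. Log2 fold changes that changed sign were near 0 or of sparse genes. Pnoc in 3d-SN011 against vehicle was -0.0069 with 6 libraries and -0.38 to 0.72 leaving out libraries, against SN011 -0.57 to 0.067, and in SN011 against vehicle -0.063 to 1.07. Oprm1 was -0.060 with the replicate block and -0.28 with voom in SN011 against vehicle (-0.43 to 0.28 leaving out libraries), and -0.055 and -0.26 against sham (-0.41 to 0.30). In vehicle against sham Penk was 0.013 with voom (-0.094 to 0.031 leaving out libraries), Oprm1 -0.091 to 0.22, Oprd1 -0.0095 to 0.12 and Tacr3 -0.016 to 0.21, and Penk in SN011 against vehicle was -0.29 to 0.020. The cause was not tested. Counts of 3 to 56 limit Oprm1 and Pnoc.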
